A study of Canis lupus familiaris with 11 samples.

Results

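The nuclear pore complex genes were taken as a fixed list of 32 symbols that covers the outer ring, inner ring, central channel, transmembrane ring, cytoplasmic side and nuclear basket of the pore, with RAN and RANGAP1. A row of the deposited table was taken where its gene name, or the protein match in its description for a row with a placeholder name, was one of these symbols. This gave 34 of 26178 rows, 29 of them with a gene name and 5 with a placeholder name. NDC1, POM121 and SEH1L had no row under those names. NDC1 stands in the table under its older symbol TMEM48, and its values are given beside the members without being counted among them. Of the 34 rows, 31 had enough reads to be tested among 13560 tested genes: the 29 named genes and 2 rows with placeholder names.

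The nuclear pore complex is the channel through the nuclear envelope for all traffic of proteins and RNA between nucleus and cytoplasm. Stacked outer and inner rings form its scaffold, proteins rich in phenylalanine-glycine repeats fill the central channel, short filaments reach into the cytoplasm, and a basket reaches into the nucleus. The small GTPase RAN gives transport its direction, because RANGAP1 keeps it in the GDP form in the cytoplasm. Pores sit in the nuclear lamina, the lamin meshwork under the inner nuclear membrane, and the basket protein NUP153 binds lamins. Scaffold nucleoporins are long-lived proteins, so the RNA levels measured here need not follow the number of pores.

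RNA was sequenced from MDCKII, an epithelial cell line of dog kidney that grows as a polarised sheet. The groups were wild-type (WT) control with 3 libraries, WT compressed with 3, LMNA knockout (KO) control with 2 and KO compressed with 3. By the sample titles, cells of all groups were grown for 3 to 4 d. The compressed groups were compressed laterally and, by their titles, had a 2 h recovery. The series description gives other time points, and the titles were followed here. LMNA encodes lamins A and C, the A-type lamins. Control sheets are labelled with no sham handling and no recovery period, so handling and recovery time cannot be told apart from compression. The labels do not say whether the KO cells are 1 clone or whether replicates are separate cultures. Genotype can therefore not be told apart from a difference between lines, and p-values measure the spread between these libraries, which may be technical. In bulk RNA, fewer cells of a type and less RNA per cell cannot be told apart.

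Libraries held 10420214 to 17999623 counts. LMNA ran from 678.7 to 1208.5 CPM (counts scaled to library size) in WT libraries and from 25.5 to 51.8 CPM in KO libraries, with 291 to 954 reads left in each KO library. All 16 epithelial markers were found and averaged over 1 CPM, with CDH16, a kidney cadherin, the lowest at a mean of 1.79 CPM and at 0 in 1 library. Their summed level was 9393 to 9731 CPM in WT compressed, against 10931 to 12251 CPM in WT control, 11586 to 12141 CPM in KO control and 10864 to 13815 CPM in KO compressed. Most markers of other cell types were low. Of 11 fibroblast and smooth muscle markers, 2 averaged over 1 CPM: MYH11 at 21.9 CPM and PDGFRA at 5.57 CPM (sum 23.9 to 31.8 CPM, DCN and LUM at 0). MYH11 was thus above the epithelial markers CLDN2 (19.0 CPM) and CDH16. Of 8 endothelial markers, 0 averaged over 1 CPM (sum 0.0877 to 4.65 CPM, EMCN at 0). Of 10 immune markers 1 did so, CD14 at 4.98 CPM (sum 2.02 to 7.66 CPM, PTPRC, CD3E, CD3D and MS4A1 at 0). The libraries farthest from the others of their group over all genes were KO compressed replicate 2, WT compressed replicate 3 and WT control replicate 1, with root mean square log2 distances of 0.866, 0.707 and 0.634.

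All 29 named nuclear pore genes were expressed in every library. Compared between genes as FPKM, which divides counts by gene length, RAN was the most abundant, at 286.7 ± 46.0 FPKM (mean ± SD over 11 libraries, as for the levels that follow). The coat protein SEC13, which also forms part of the COPII vesicle coat, was next at 92.1 ± 11.3 FPKM, followed by the basket protein NUP50 at 77.9 ± 16.5 FPKM. NUP210, a membrane-spanning nucleoporin whose expression is tissue-restricted, was the least abundant at 1.02 ± 0.58 FPKM. The median of the 29 genes was 23.7 FPKM, against 12.2 FPKM over 12743 tested genes with a read in every library. These levels depend on how much untranslated sequence each gene model carries.

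By place in the pore, the basket had a median of 66.3 FPKM over 3 genes, the central channel 41.6 FPKM over 5, the inner ring 22.5 FPKM over 5, the outer ring 22.4 FPKM over 8 and the cytoplasmic side 11 FPKM over 5. Genes of 1 structure were not at 1 level. Within the outer ring the means ran from 14.3 FPKM for NUP160 to 92.1 FPKM for SEC13, and within the inner ring from 11.6 FPKM for NUP35 to 49.1 FPKM for NUP93. On the cytoplasmic side, NUP88 was at 60.9 FPKM while NUP214, with which it forms a complex, was at 10.5 FPKM.

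**Figure D1:**
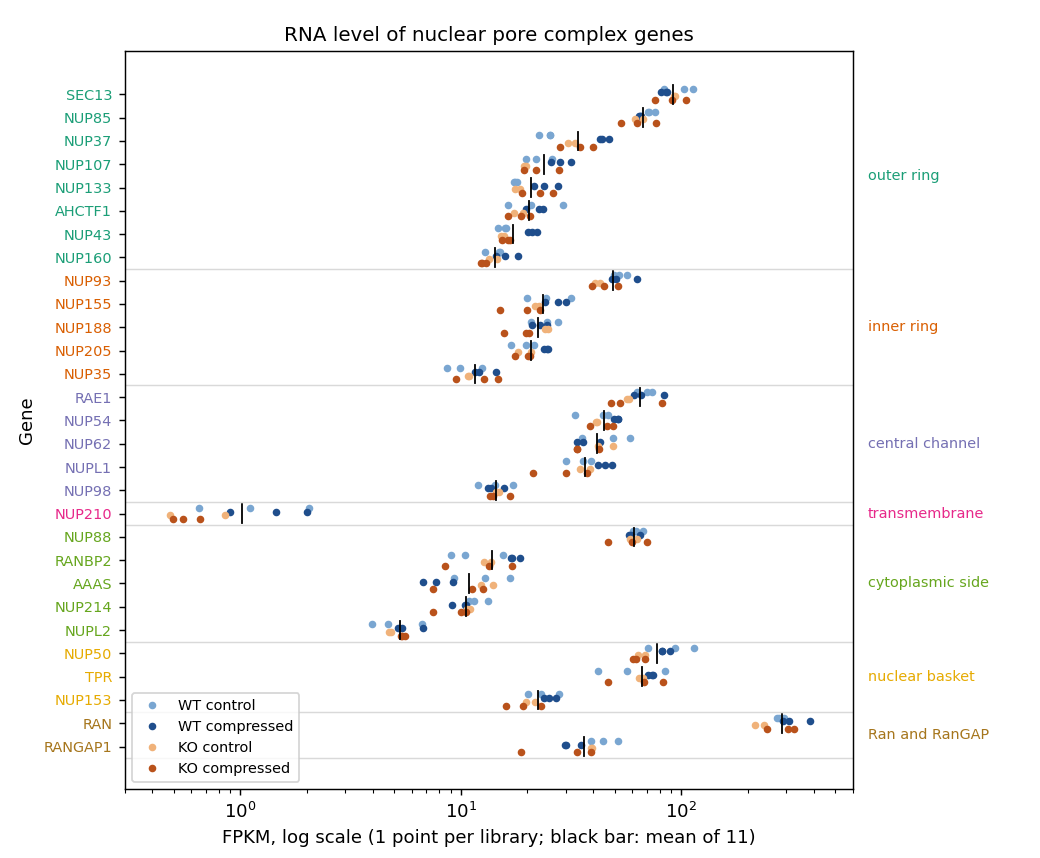
RNA level of the 29 named nuclear pore genes in FPKM on a log axis, with 1 point per library coloured by group and a black bar at the mean of the 11 libraries; genes are ordered by place in the pore. RAN stands highest at 286.7 FPKM and NUP210 lowest at 1.02 FPKM, and for most genes the points of the 4 groups lie close together.

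At the median, the named pore genes varied less between libraries than all tested genes with a read in every library. The 2 sets were not matched for level, with medians of 23.7 and 12.2 FPKM. The ratio of the highest to the lowest library, in CPM scaled by TMM (trimmed mean of M values), had a median of 1.73 over the 29 genes, against 2.32 over the 12743 genes. It was smallest for NUP85, an outer ring scaffold protein, at 1.41, and largest for NUP210 at 4.20. Part of the variation ran along single libraries. Within WT control, 19 of 29 genes were highest in replicate 1 (40.9% of all tested genes were highest there), and 19 were lowest in replicate 2 (37.4% of all). Within WT compressed, 19 of 29 were highest in replicate 3 (40.2% of all).

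**Figure D2:**
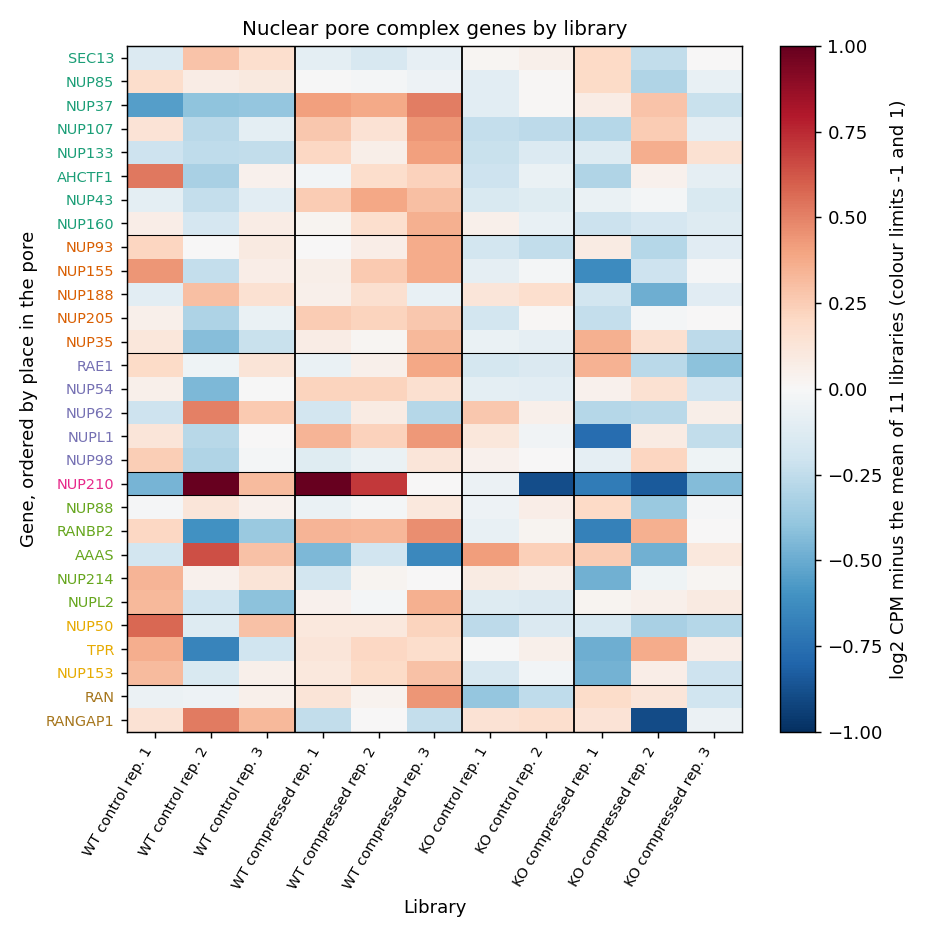
Heat map of the 29 named nuclear pore genes (rows, ordered by place in the pore) in the 11 libraries (columns), as log2 CPM minus the gene's mean over the libraries; colours are limited to -1 and 1, which NUP210 exceeds. NUP37, NUP43 and NUP133 are higher in the 3 WT compressed libraries than in the 3 WT control libraries, and WT control replicate 1 and replicate 2 differ for many genes, TPR among them.

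Compression of WT sheets was compared with WT control to ask how RNA of pore genes changed after lateral compression. Of 31 members, 1 passed the test, at an adjusted p under 0.05 in edgeR's quasi-likelihood test: NUP37, a propeller protein of the outer ring, rose 1.84-fold. Across all genes, 848 of 13560, or 6.25%, passed, 3.85% higher and 2.4% lower. At an unadjusted p under 0.05, 5 members were higher and 3 lower, against 15.4% and 16.4% of all genes. The median log2 fold change of the members was 0.11, with 19 of 31 above 0, and that of all genes was -0.02, with 48.5% above 0. Without WT control replicate 2 the members' median was 0.01, without replicate 3 it was 0.06, without WT compressed replicate 3 it was 0.05, and without WT control replicate 1 it was 0.21. In 8 members every compressed library was above every control library and in 5 every one was below, against 21.2% and 20.8% of all genes. Fits that each left out 1 of the 11 libraries called 0 to 5 members and 0 to 3066 of all genes.

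NUP37 (ENSCAFG00000007282, chromosome 15, 40930217 to 40972096, minus strand, CanFam3.1) had 30.6, 34.0 and 34.4 CPM in WT control and 59.7, 58.5 and 64.0 CPM in WT compressed. The groups did not overlap, and the replicates within each lay close together. Its log2 fold change was 0.88 ± 0.17 (SE, as for all log2 fold changes below), with an adjusted p of 0.041 in edgeR's quasi-likelihood test. Leaving out any 1 of the 11 libraries kept the log2 fold change between 0.83 and 0.91. The adjusted p rose past the threshold in 7 of these fits: 0.0843 without WT control replicate 2, 0.118 without replicate 3, 0.132, 0.0501 and 0.184 without WT compressed replicates 1, 2 and 3, and 0.076 and 0.0765 without KO control replicates 1 and 2. It was also above the threshold in the 3 limma fits, at 0.054 to 0.0794, and with the replicate number as a block, at 0.111.

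Among the other outer ring genes, 5 of 7 had a log2 fold change above 0 and none passed the test. NUP43, a propeller protein that is likewise found in the animal outer ring, had 74.3, 67.3 and 73.8 CPM in WT control and 94.6, 104 and 97.8 CPM in WT compressed. All compressed values were above all control values, with a log2 fold change of 0.46 ± 0.13 and an adjusted p of 0.0536 in edgeR. NUP133, whose membrane-sensing domain anchors the ring at the curved pore membrane, had 66.1, 63.9 and 64.0 CPM against 88.0, 79.3 and 101 CPM, again without overlap (0.47 ± 0.16, adjusted p 0.0777 in edgeR). In DESeq2, 4 members passed the test, against 20% of the genes with an adjusted p; besides NUP37 and AAAS, described below, these were NUP43 (adjusted p 0.00945) and NUP133 (0.0434). In edgeR, NUP43 passed without WT control replicate 1 (adjusted p 0.0495), KO compressed replicate 1 (0.046) or KO compressed replicate 2 (0.0206), and NUP133 without the last of these (0.0313). In these fits 1379, 1229 and 3066 of all genes passed, against 848 with all libraries. Over the fits that each left out 1 library, the adjusted p went up to 0.192 for NUP43, with log2 fold changes of 0.41 to 0.49, and up to 0.281 for NUP133, at 0.37 without WT compressed replicate 3. NUP107 was at 0.36 ± 0.17 and NUP160 at 0.19 ± 0.15, while NUP85 was at -0.14 ± 0.15. AHCTF1, the chromatin-binding protein ELYS that seeds pores after mitosis, was at 0.00 ± 0.19. SEC13 had 96.0, 129 and 118 CPM in control and 98.5, 94.3 and 99.6 CPM in compressed libraries, which overlap (-0.23 ± 0.16).

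**Figure D3:**
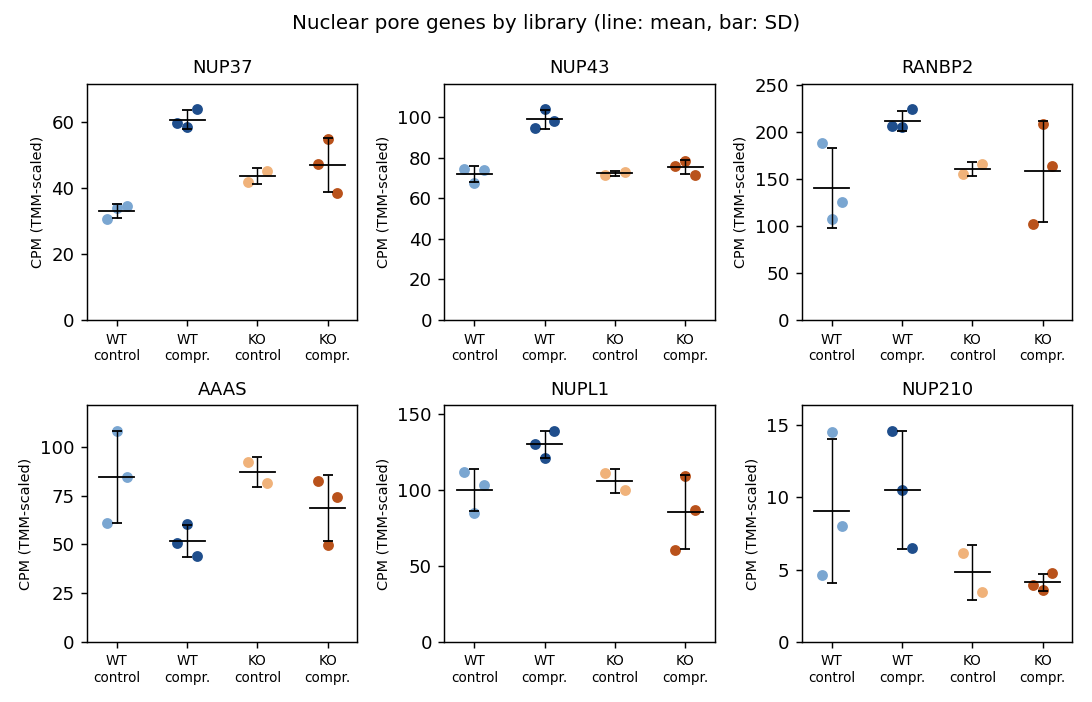
CPM (TMM-scaled) of NUP37, NUP43, RANBP2, AAAS, NUPL1 and NUP210 in every library, with the mean (line) and SD (bar) of each group. NUP37 and NUP43 are higher in WT compressed than in WT control with no overlap, whereas their KO compressed values overlap those of KO control. NUP210 is at or below 6.17 CPM in all 5 KO libraries, and also in WT control replicate 1, at 4.65 CPM.

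None of the 5 inner ring genes passed the test. NUP205, a large scaffold protein, was at 138.9 ± 17 CPM (mean ± SD, n = 3) in WT control and 177.0 ± 3.0 CPM in WT compressed, without overlap (log2 fold change 0.35 ± 0.14, adjusted p 0.116 in edgeR). Its paralog NUP188 had 152, 201 and 182 CPM against 169, 183 and 156 CPM, which overlap. NUP93, the linker that holds the inner ring together, also overlapped, with 159, 137 and 146 CPM against 137, 143 and 178 CPM. NUP155 and NUP35, which touch the pore membrane, had log2 fold changes of 0.12 ± 0.20 and 0.31 ± 0.19.

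In the central channel, NUP54 was at 0.32 ± 0.16 and NUPL1 (now called NUP58) at 0.38 ± 0.19, while their partner in the channel trimer, NUP62, was at -0.34 ± 0.20. NUPL1 had 112, 85.1 and 103 CPM in WT control and 130.2, 121 and 139 CPM in WT compressed, without overlap. RAE1, an mRNA export factor, had 166, 140.3 and 158 CPM against 139, 150.0 and 189 CPM, and its binding partner NUP98 had a log2 fold change of -0.01 ± 0.16. In the membrane ring, NUP210 had 4.65, 14.5 and 8.0 CPM against 14.6, 10.5 and 6.46 CPM. Its WT group means, 9.05 and 10.5 CPM, lay closer together than the replicates within either group (SD 5.0 and 4.1 CPM). TMEM48, the row for the pore membrane protein NDC1, had 108, 88.0 and 87.2 CPM against 125, 121 and 139 CPM, without overlap (0.44 ± 0.15, adjusted p 0.0746 in edgeR).

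Genes of the cytoplasmic side lay on both sides of 0. RANBP2, the filament protein that binds RAN and acts as a SUMO ligase, had 187, 107 and 126 CPM in WT control and 206, 205 and 224 CPM in WT compressed (0.59 ± 0.24, adjusted p 0.115 in edgeR). The compressed libraries were all above the controls, of which replicate 1 was the highest. AAAS, which encodes aladin, the protein mutated in triple A syndrome, had 60.7, 108 and 84.5 CPM against 50.7, 60.6 and 44.1 CPM (-0.70 ± 0.23, adjusted p 0.0717). These groups met almost at 1 value, since the lowest control library was replicate 1 at 60.7 CPM. AAAS passed the test in DESeq2 with an adjusted p of 0.029. Leaving out WT control replicate 1 gave RANBP2 a log2 fold change of 0.86 (adjusted p 0.0438) and AAAS one of -0.89 (adjusted p 0.0358), both in edgeR. Leaving out WT control replicate 2 gave 0.43 for RANBP2 (adjusted p 0.333) and -0.49 for AAAS (adjusted p 0.251). Without KO compressed replicate 2, where 3066 of all genes passed, AAAS had an adjusted p of 0.0248 at an unchanged log2 fold change of -0.70. NUP88 had 135, 148 and 141 CPM against 130.4, 134 and 146 CPM, NUP214 was at -0.22 ± 0.17, and NUPL2 (now NUP42), which works in mRNA export, was at 0.20 ± 0.21.

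The basket genes overlapped between WT control and WT compressed. TPR, the coiled-coil protein that builds the basket, had 566, 278 and 382 CPM in control and 478, 506 and 496 CPM in compressed libraries. Its control libraries spanned more than its compressed ones, with replicate 1 highest and replicate 2 lowest. NUP153 was at 0.11 ± 0.17, and NUP50, which helps release import cargo, had 159.6, 98.0 and 132 CPM against 116, 116 and 125 CPM. RAN had 829.8, 836 and 895 CPM against 944, 886 and 1175 CPM, which overlap (0.23 ± 0.15). RANGAP1 was at 90.9 ± 12 CPM in control and 64.7 ± 6.7 CPM in compressed libraries (-0.49 ± 0.22, adjusted p 0.148 in edgeR). Its adjusted p was 0.0297 without KO compressed replicate 2, where 3066 of all genes passed and its log2 fold change stayed at -0.49. Without WT control replicate 2 the adjusted p was 0.363, at a log2 fold change of -0.39. RANGAP1 overlaps EP300 on the other strand, and AAAS overlaps C12orf10. NUP188, NUP88 and NUP54 also overlap expressed genes on the other strand. Whether counting used strand is not known from the labels, so reads of such pairs cannot be told apart.

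**Figure D4:**
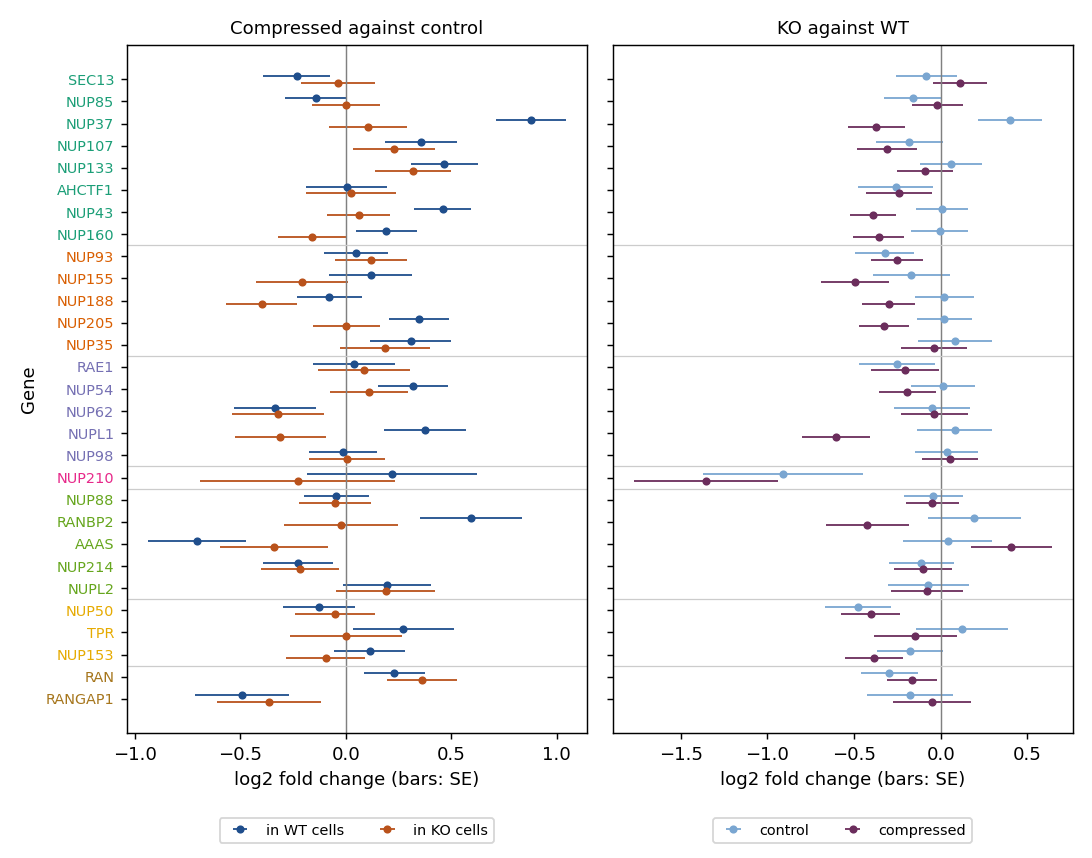
Log2 fold changes of the 29 named nuclear pore genes with their SE (bars), ordered by place in the pore: compressed against control in WT and KO cells on the left, and KO against WT in control and compressed cells on the right. NUP37 stands at 0.88 in WT cells and 0.10 in KO cells on the left, and most compressed values on the right lie below 0, down to -1.36 for NUP210.

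Summed proliferation genes differed along with this comparison: 3981 to 4124 CPM in WT control and 4405 to 4738 CPM in WT compressed, without overlap, although 0 of 18 tested genes of that list passed the test in edgeR and 3 had an unadjusted p under 0.05. Their part in the values of the pore genes was not tested.

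The direction of the WT values also ran with how densely genes lie around a locus, counted as genes within 500 kb on either side. Across all genes in 4 classes of this density, the median log2 fold change went from 0.22 (0 to 10 neighbours) and 0.16 (11 to 17) to -0.09 (18 to 30) and -0.43 (31 to 133). All 7 named pore genes in the sparsest class and all 8 in the next were above 0, NUP37 (10 neighbours), NUP133 (8), RANBP2 (12) and NUP43 (16) among them. In the third class 3 of 7 were above 0, and in the densest 1 of 7, where AAAS (35), RANGAP1 (32) and NUP62 (64) lay. The same measure varied between replicates: the median level of the densest class minus that of the sparsest, each relative to its mean over libraries, was 0.05, 0.65 and 0.31 log2 units in the WT control libraries, -0.27, -0.11 and -0.53 in WT compressed, 0.12 and 0.20 in KO control, and 0.12, -0.66 and 0.08 in KO compressed. With a loess correction of each library for this density, NUP37 kept a log2 fold change of 0.73 ± 0.17 (adjusted p 0.0417 in edgeR), AAAS moved to -0.34 ± 0.17 and NUP62 from -0.34 to 0.30 ± 0.20. The correction also moved the median of all genes from -0.02 to 0.06. After it, 22 of the 29 named genes were above 0, against 19 before, and 7 had changed sign (NUP62, NUP85, NUP88, NUP98, NUP188, RAE1 and AHCTF1).

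**Figure D5:**
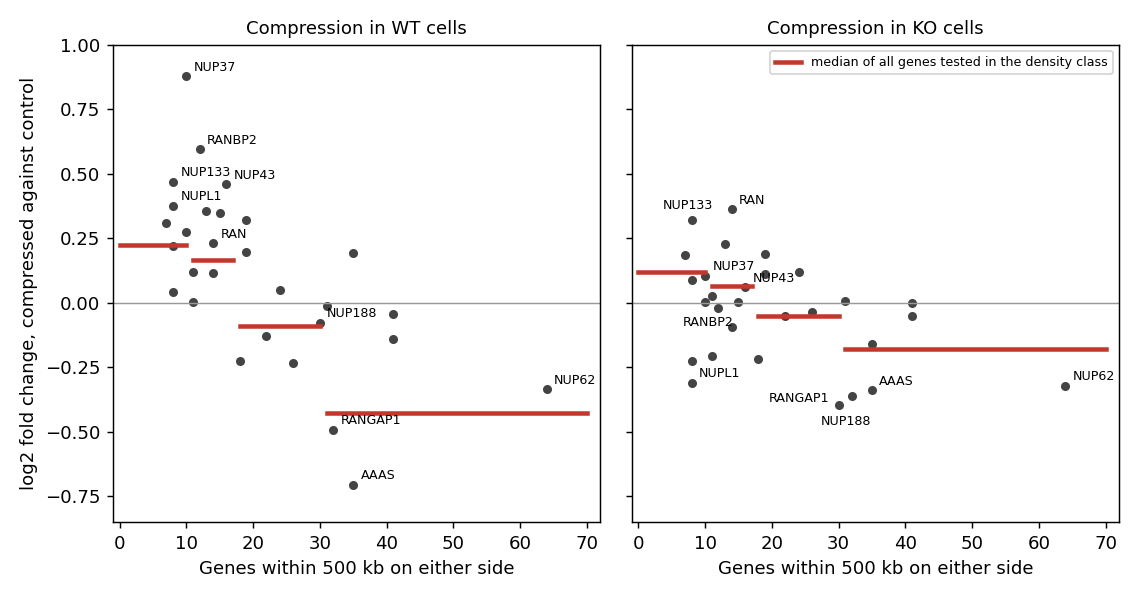
Log2 fold change on compression of the 29 named nuclear pore genes (points) against the number of genes within 500 kb on either side, in WT cells (left) and KO cells (right); red lines are the medians of all genes tested in each density class, the last drawn to 70 of 133. In WT cells the pore genes fall from the sparse to the dense side along with the medians of all genes, 0.22 to -0.43.

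Compression of KO sheets was compared with KO control to ask the same in cells with little LMNA RNA. No gene of 13560 passed the test (0%), and 828 (6.11%) had an unadjusted p under 0.05; DESeq2 called 1 gene (0.00549% of 18218), and limma 1 (0.00755%), 0 or 2 (0.011%) according to its setting, none of them a member. Among the members 1 was higher and 1 lower at an unadjusted p under 0.05, against 3.41% and 2.7% of all genes. The median log2 fold change of the members was 0.00, with 16 of 31 above 0, and the smallest adjusted p was 0.773. In 3 members every compressed library was above both controls and in 5 every one was below, against 13.5% and 14% of all genes.

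RAN had 663 and 726 CPM in KO control and 984, 939.9 and 756 CPM in KO compressed, all above the controls (0.36 ± 0.16, unadjusted p 0.0451). NUP188 had 178 and 184 CPM against 144, 117 and 151 CPM, all below the controls (-0.40 ± 0.17, unadjusted p 0.0345). NUP133 had 65.3 and 69.2 CPM against 69.6, 97.9 and 84.5 CPM (0.32 ± 0.18, and 0.20 without KO compressed replicate 2), where replicate 1 lay next to the controls. NUP37 had 41.9 and 45.3 CPM against 47.3, 54.9 and 38.6 CPM, which overlap (0.10 ± 0.18), and NUP43 had 71.3 and 73.1 CPM against 76.0, 78.4 and 71.6 CPM (0.06 ± 0.15). For AAAS the values were 92.3 and 81.4 CPM against 82.3, 49.6 and 74.2 CPM (-0.34 ± 0.26), and for RANBP2 155 and 166 CPM against 102, 208 and 163 CPM (-0.02 ± 0.27). KO compressed replicate 2 was the lowest for AAAS and the highest for RANBP2 and NUP133. TPR spanned 312, 566 and 459.5 CPM after compression, on both sides of its controls at 437 and 454 CPM.

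Compression in WT and in KO cells used separate libraries, so directions can be set side by side. They had the same sign for 22 of 31 members (71%), 13 above 0 in both and 9 below, against 72.8% of all tested genes. The difference between the genotypes in the response to compression was tested in the same fit as an interaction. It passed the test for 0 of 13560 genes (0%), of which 650 (4.79%) had an unadjusted p under 0.05, as did 2 of 31 members, both with values below 0 (2.53% of all genes were above 0 and 2.26% below). DESeq2 called no gene and no member. The interaction for NUP37 was -0.77 ± 0.25 (unadjusted p 0.00739, adjusted p 0.939 in edgeR) and that for NUPL1 was -0.69 ± 0.29 (unadjusted p 0.0338, adjusted p 0.939). For TMEM48, which is not counted as a member, it was -0.50 ± 0.22 (unadjusted p 0.0422, adjusted p 0.939 in edgeR). On compression of KO cells TMEM48 was at -0.05 ± 0.17. Among interactions above 0, the smallest p belonged to ENSCAFG00000012123, at 0.98 ± 0.88, and AAAS, at 0.37 ± 0.35. The value of ENSCAFG00000012123 was 0.35 without KO compressed replicate 1, and that of AAAS was 0.22 without the same library and 0.55 without the second replicate of that group. Omitting WT control replicate 1 or 2 gave AAAS 0.56 or 0.15. Without the 3 libraries farthest from their groups, RANBP2 was the 1 member that passed, among 2.69% of all genes. Those libraries were chosen for their distance, so leaving them out by itself narrows the spread within groups. This fit is therefore no separate evidence for RANBP2.

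KO control was compared with WT control to ask what differed between the lines without compression. None of the 31 members passed the test in edgeR, against 46 of 13560 genes (0.339%), and DESeq2 called none of them either, against 0.867% of genes. At an unadjusted p under 0.05, NUP37 was higher and NUP50 lower, 2 of 31 members against 7.79% of all genes (4.59% higher and 3.2% lower). NUP50 had 159.6, 98.0 and 132 CPM in WT control and 89.2 and 96.9 CPM in KO control, without overlap (-0.48 ± 0.19, adjusted p 0.577). WT control replicate 2 lay just above the KO values, and without WT control replicate 1 the log2 fold change was -0.30. NUP37 had 30.6, 34.0 and 34.4 CPM against 41.9 and 45.3 CPM, without overlap (0.40 ± 0.18, adjusted p 0.632). RANBP2, next in that direction, overlapped, with 187, 107 and 126 CPM against 155 and 166 CPM (0.19 ± 0.27). Its log2 fold change was 0.46, 0.03 and 0.12 without WT control replicates 1, 2 and 3. In 1 member, NUP37, both KO libraries were above every WT library and in 6 members both were below (NUP50, NUP85, NUP93, RAE1, RAN and ENSCAFG00000012123), against 16.9% and 15% of all genes. NUP93 had 120.5 and 115 CPM in KO control and RAE1 128 and 131 CPM, next to the WT values above.

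NUP210 had 6.17 and 3.48 CPM in KO control, and 4.65, 14.5 and 8.0 CPM in WT control (-0.91 ± 0.46, adjusted p 0.689 in edgeR). The groups overlapped, and the log2 fold change was -0.40 without WT control replicate 2, and -1.38 and -0.56 without KO control replicates 1 and 2. TMEM48 overlapped too (0.24 ± 0.17, adjusted p 0.801 in edgeR).

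KO compressed was compared with WT compressed to ask what differed between the lines after compression. None of the 31 members passed the test in edgeR or DESeq2, against 107 of 13560 genes (0.789%, of which 0.509% higher and 0.28% lower) in edgeR and 2.44% in DESeq2. Of the 31 members, 28 had a log2 fold change below 0, with a median of -0.19. Of all genes, 51% were below 0, with a median of -0.01. The members were measured in the same libraries, so they are not separate observations of a difference between the groups. At an unadjusted p under 0.05, 9 members were lower and 0 higher, against 4.49% and 6.79% of all genes in those directions. In 11 members every KO library was below every WT library and in 0 every one was above, against 7.82% and 7.92% of all genes. The 9 genes were NUP210, NUPL1, NUP43, NUP155, NUP160, NUP50, NUP205, NUP153 and NUP37. With KO compressed replicate 2 and WT compressed replicate 3 left out, 20 of the 29 named genes were below 0, against 26 with all libraries.

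NUP210 had 14.6, 10.5 and 6.46 CPM in WT compressed and 3.96, 3.60 and 4.76 CPM in KO compressed, from 64 to 190 reads against 41 to 77 (-1.36 ± 0.42, adjusted p 0.19 in edgeR). The groups did not overlap, with WT compressed replicate 3 nearest to the KO values. NUPL1 had 130.2, 121 and 139 CPM against 60.7, 109 and 86.7 CPM, without overlap (-0.61 ± 0.20, adjusted p 0.215). Without KO compressed replicate 2, where 349 of all genes passed, NUPL1 was at -0.82 and passed, with an adjusted p of 0.0354 in edgeR. Without KO compressed replicate 1 it was at -0.41 (adjusted p 0.416), and over the fits that each left out 1 library the adjusted p went up to 0.549. NUP43 was at -0.39 ± 0.13 and NUP37 at -0.37 ± 0.16, both without overlap. NUP155 was at -0.50 ± 0.20, NUP160 at -0.36 ± 0.15 and NUP205 at -0.33 ± 0.14. In the basket, NUP50 was at -0.40 ± 0.17, with 95.7, 85.4 and 88.2 CPM in KO compressed, NUP153 at -0.39 ± 0.17, and TPR at -0.15 ± 0.24. TMEM48, beside the members, was at -0.26 ± 0.15 without overlap (adjusted p 0.561 in edgeR).

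Above 0 were AAAS (0.41 ± 0.23), SEC13 (0.11 ± 0.16) and NUP98 (0.05 ± 0.16). Without KO compressed replicate 1, AAAS was at 0.26 and SEC13 at -0.0026, and without replicate 2 SEC13 was at 0.22. SEC13 had 121, 88.9 and 106 CPM in KO compressed, on both sides of the WT compressed values, and 107 and 109 CPM in KO control. NUP93 (145, 112 and 127 CPM), RAE1 (184, 120.4 and 109 CPM) and NUP88 (156, 106 and 136 CPM) overlapped their WT compressed values too, and NUP88 had 132 and 143 CPM in KO control. In KO compressed the summed proliferation genes were at 3824 to 4535 CPM, against 4405 to 4738 CPM in WT compressed, and 15 of 18 tested ones had a log2 fold change below 0, with a median of -0.15. Their part in the lower values of the pore genes was not tested.

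Other genes of nuclear transport, in lists of textbook members, were read beside the pore genes. On compression of WT cells, 3 of them passed the test in edgeR. CSE1L, which returns importin alpha to the cytoplasm, rose from 161.8 ± 26.6 to 239.3 ± 28.4 CPM (mean ± SD, n = 3 in each; 0.56 ± 0.16, adjusted p 0.0492), and was 1 called of 8 exportin genes. THOC7, of the THO complex that couples transcription to mRNA export, rose with a log2 fold change of 0.94 ± 0.17, and NXT2, a cofactor of the mRNA exporter, with one of 0.88 ± 0.18 (adjusted p 0.041 for each). They were the 2 called of 14 mRNA export genes. None of the 3 passed in every fit that left out 1 library: CSE1L passed in 3 of the 11 (0.46 to 0.70, adjusted p up to 0.207), and THOC7 and NXT2 in 4 each (adjusted p up to 0.184). With the replicate block none of them passed, at adjusted p of 0.117 for CSE1L and 0.111 for the others. None was called of 18 importins, 7 Ran cycle regulators, 7 genes of the SUMO machinery, 11 further pore-associated genes and 16 genes of the lamina and its links to the cytoskeleton. Of all genes tested, 6.25% were called in this comparison. In the other comparisons LMNA was the only gene of these lists that passed. Between KO and WT compressed cells, 17 of 18 importins and 8 of 8 exportins had a log2 fold change below 0, with medians of -0.19 and -0.31. Below 0 were also 5 of 7 Ran cycle regulators, 9 of 14 mRNA export genes and 6 of 7 SUMO genes (medians -0.14, -0.13 and -0.06). So were 8 of 11 further pore-associated genes and 11 of 16 lamina genes (medians -0.15 and -0.12), and most pore genes. Of all genes tested, 49% were above 0, with a median of -0.01.

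The 5 placeholder rows held few reads. A row of the authors' own assembly (chromosome 18, 41855734 to 41856251, plus strand, CanFam3.1), matched to NUP160 by its description and without a gene identifier, lies just upstream of NUP160 on the same strand (41862028 to 41902973). It had 22, 16 and 29 reads in WT control, 6, 8 and 4 in WT compressed, 27 and 19 in KO control, and 2, 3 and 15 in KO compressed. All compressed libraries were below the controls of their genotype, with log2 fold changes of -1.55 ± 0.66 in WT (adjusted p 0.129 in edgeR) and -1.43 ± 0.71 in KO cells (adjusted p 0.773). The KO value was -2.58 without KO compressed replicate 3 and -1.02 without replicate 1. NUP160 itself was at 0.19 ± 0.15 and -0.16 ± 0.16 in these comparisons. ENSCAFG00000012123, matched to RAN, had 0.945, 1.01 and 0.855 CPM in WT control, 0.846, 0.762 and 0.908 CPM in WT compressed, 0.496 and 0.380 CPM in KO control, and 1.34, 0.439 and 0.557 CPM in KO compressed. Reads of a row that resembles RAN may come from RAN itself. Not tested were another assembled row, matched to NUP50 with 1 to 15 reads per library, and ENSCAFG00000006956 and ENSCAFG00000001742, both matched to RAN, with 2 reads in 1 library and with 0 in all.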

How the data were processed

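For 11 libraries the authors deposited raw counts, in whole numbers, and FPKM of the same genes; per the labels' protocols, RNA was captured with oligo(dT) beads and primed with random hexamers. CASAVA, FastQC, HISAT2 2.0.5 and the build CanFam3.1 are named in the submitters' processing notes. For counter, annotation and strand setting the sources used here give nothing. Groups and replicate numbers came from the sample titles. Counts were fitted in edgeR 4.0.16 (R 4.3.3): filterByExpr over 4 groups, TMM, 1 quasi-likelihood fit of all libraries with 7 residual degrees of freedom, two-sided tests and Benjamini-Hochberg adjustment over 13560 genes at 0.05. Deposited FPKM served for levels between genes and for limma 3.58.1. Alternatives were DESeq2 1.42.0, RLE scaling, other filters, limma, a replicate block and each library left out; fits without the libraries farthest from their groups and the density correction were added after seeing the data. Values by library are given for members past the threshold, the 2 with the smallest p in each direction of each comparison, and the most abundant of each substructure; other members named in the text were chosen after their values were seen. The members and lists were chosen with earlier results of these data known. Marker and list genes that the table names by a protein entry were found by the symbol in their description. The test was checked on simulated counts without outlying libraries or a gradient with gene density, so that check does not cover these features of the data. Replicates of a group differed by more than sampling noise (lowest chi-square per gene 5.81).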

Additional observations from a re-analysis of the deposited data

How the results depend on the processing

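In WT compression the number of members called was 4 with DESeq2, 2 with no filter and 0 in the 3 limma fits. It was 7 without the 3 libraries farthest from their groups (TPR, RANBP2, NUP205, NUP43 and NUP37 higher, RANGAP1 and AAAS lower), against 26% of all genes. Those 3 were chosen for their distance, so leaving them out by itself narrows the spread within groups. The count of all genes was 2476 (20%) with DESeq2, 1754 with no filter, 0 and 1 in limma with pseudocounts of 1 and 0.1, 0 in limma with no filter, and 3497 without those 3 libraries. Leaving out 1 library at a time gave 0 to 5 members and 0 to 3066 of all genes, the highest of each without KO compressed replicate 2. Members numbered 4 without WT control replicate 1, where 1379 of all genes were called, and 2 without KO compressed replicate 1, where 1229 were called. Fits without WT control replicate 2 or 3, or without any 1 WT compressed or KO control library, called 0 members. These fits called 0 or 1 of all genes, although the KO control libraries lie outside this comparison. NUP37 was above the threshold without any 1 of 7 libraries while its log2 fold change stayed at 0.83 to 0.91; the cause of the change in these counts was not tested. In KO compression all genes called were 1 with DESeq2, 1 and 2 in limma with and without the filter, 13 without the 3 libraries, and 0 to 0 with 1 left out. For KO against WT control all genes called were 125 with DESeq2, 90 with no filter, 16, 8 and 21 in the limma fits, 111 without KO compressed replicate 2 and WT compressed replicate 3, 802 without all 3, and 6 to 106 with 1 left out. For KO against WT compressed they were 352, 201, 59, 50 and 57 in the same order, 723 without the 3 libraries, and 39 to 349 with 1 left out. Members called in that comparison were 2 without the 3 (NUPL1 and NUP210), against 5.37% of all genes. With 1 library left out they were 0 to 1, the 1 without KO compressed replicate 2, where 349 of all genes were called. For the interaction, limma with no filter called 1 gene, leaving out the 3 libraries gave 362 genes and 1 member, and leaving out 1 gave 0 to 1 gene. SEC13 between KO and WT compressed went to -0.0026 without KO compressed replicate 1, within a range of -0.0026 to 0.22. RLE scaling and the filter of 1 CPM in 3 libraries called the same member, NUP37.

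Correlations of deviations between WT libraries with the same replicate number were -0.12, 0.20 and 0.01, and 3 of 6 libraries correlated best with their own number. With only 3 pairs, this check cannot tell whether replicate numbers pair the libraries. With the replicate block, 0 members and 0 genes were called in WT compression (NUP37 at an adjusted p of 0.111), and 15 and 53 genes in KO against WT control and compressed. With 2 or 3 libraries a group, NUP210 at 41 to 216 reads and the placeholder rows are measured least precisely.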
